A study of Mus musculus with 63 samples.

Results

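The genes described here are 9 components and regulators of the complement system: C1ra, C1s1, C2, C3, C4b, Cfb, Cfp, Serping1 and C5ar1. They were chosen by symbol, with earlier results of these data known. Matched to the gene identifiers of a deposited count table of 56748 genes, all 9 of 9 passed the filter on low counts, which left 22147 genes in all. Levels were read in 63 RNA-seq libraries of mouse peritoneal macrophages that the labels place in 16 groups. The groups cross 4 factors with 2 levels each, and each holds 2 to 5 libraries. The genotype is either wild-type B6 or a knock-in whose own Lrrk2 gene carries the R1441C change, with 32 and 31 libraries. The other factors are sex, with 33 female and 30 male libraries, a labelled age, old (18 to 21 months) in 36 and young (2 to 3 months) in 27, and a labelled treatment of the cells in culture. Treatment was interferon-gamma (IFN-γ) at 100 U for 18 h in 33 libraries, and vehicle, labelled untreated, in 30. All donor mice, the controls included, had received 3% thioglycollate by peritoneal injection 72 h before the cells were collected, which draws inflammatory macrophages into the cavity, and the cells were selected only by letting them adhere. The knock-in changes 1 base, which read counts per gene do not show, so they give no check of the genotype labels. No label says whether libraries of a group came from separate animals, so p-values measure the spread between libraries, which may be technical.

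Complement is a cascade of plasma proteins that marks particles for uptake, recruits leukocytes and lyses membranes. In the classical pathway C1q binds a target and activates the proteases C1r and C1s, which cleave C4 and C2 into the convertase that splits C3, while in the alternative pathway C3b pairs with factor B (Cfb) and properdin (Cfp) stabilises the resulting convertase. Serping1 encodes the C1 inhibitor, which inactivates C1r and C1s, and C5ar1 encodes the receptor for the C5a fragment that attracts phagocytes. Most plasma complement is made by the liver, and macrophages are a well known local source of many of its components, several of which are induced by interferons.

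Library totals ran from 73.6 to 106.6 M reads with a median of 98.2 M, and levels are given as CPM, reads scaled by total and TMM factor. The summed CPM of 8 macrophage markers lay between 18829 and 38483 over the 63 libraries. Most of that sum is Lyz2, with a highest group mean of 30131 CPM. Those of the other markers ran from 230 CPM for Mrc1 to 2457 CPM for Cd68. Gbp2, a GTPase that IFN-γ induces strongly, split fully by the age label, whatever the treatment label. It had 4372 to 7510 CPM in the 36 old and 13.5 to 883 CPM in the 27 young libraries. The treatment labels separated as well only in the wild-type young and in wild-type old males. In the wild-type young Gbp2 had 655 to 883 CPM with IFN-γ against 13.5 to 195 CPM untreated in females, and 235 to 662 against 115 to 186 CPM in males. In wild-type old males the order was reversed, at 4599 to 5520 CPM with IFN-γ against 5992 to 6621 CPM untreated. In addition, 3 libraries of knock-in old males are titled untreated but carry IFN-γ as their treatment characteristic. Each age or treatment comparison below is therefore one between labels, and age cannot be told apart from IFN-γ exposure in it. Wild-type IFN-γ females stood apart in 2 libraries, old 2 and young 1, where 8 B cell markers summed to 1981 and 2738 CPM against at most 704 CPM in any other library. Within groups, 17 pairs of libraries resembled each other more closely than any pair from different groups, although none agreed within sampling noise, and a fit with such libraries joined, which leaves 46 units, is given where it ends a call.

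The members covered a wide range of levels. Per length, in the FPKM values deposited by the authors, C3 was the highest member in the median old library at 321 FPKM (range 126 to 657), followed by Cfp at 134 FPKM, C1ra at 70.8 FPKM and C4b at 49.7 FPKM. C5ar1 (21.4 FPKM), Cfb (19.1 FPKM), C1s1 (11.1 FPKM), Serping1 (5.70 FPKM) and C2 (0.314 FPKM) came next. In the median young library the order began with Cfp at 117 FPKM, then C5ar1 at 56.0 FPKM, C4b at 25.9 FPKM and C3 at 23.0 FPKM, and it ended with Serping1 at 0.689 FPKM and C2 at 0.0491 FPKM. Ranges of neighbours in these orders overlapped in most cases: among old libraries C1ra spanned 49.1 to 102 FPKM and C4b 18.0 to 481 FPKM, and C5ar1 spanned 11.4 to 49.5 FPKM and Cfb 7.54 to 69.4 FPKM. C2 held the last place in every library, with 6 to 249 reads, and its values rest on few reads in young libraries.

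Between the age labels, 7 of the 9 members rose and 1 fell in the old libraries, as the mean of the 8 contrasts within sex, genotype and treatment (edgeR quasi-likelihood test, Benjamini-Hochberg adjusted p under 0.05). Over all tested genes 70.8% passed the same test, 31.9% higher and 38.9% lower. The median change of the members was 2.96 on the log2 scale, against -0.07 over all genes. Of the 9, 6 rose by more than 2 on the log2 scale, which 2.85% of tested genes did. The members were chosen with earlier results of these data known, and the mark of 2 after values were seen. Shares over all genes are therefore a description here and do not test the members as a set. In the 72 tests of a member within a stratum 56 passed, where 40.0% of all such tests did. C1ra, C1s1, C2, C3, Cfb and Serping1 rose and C5ar1 fell in each of the 8 strata, and C4b and Cfp passed in none.

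**Figure D1:**
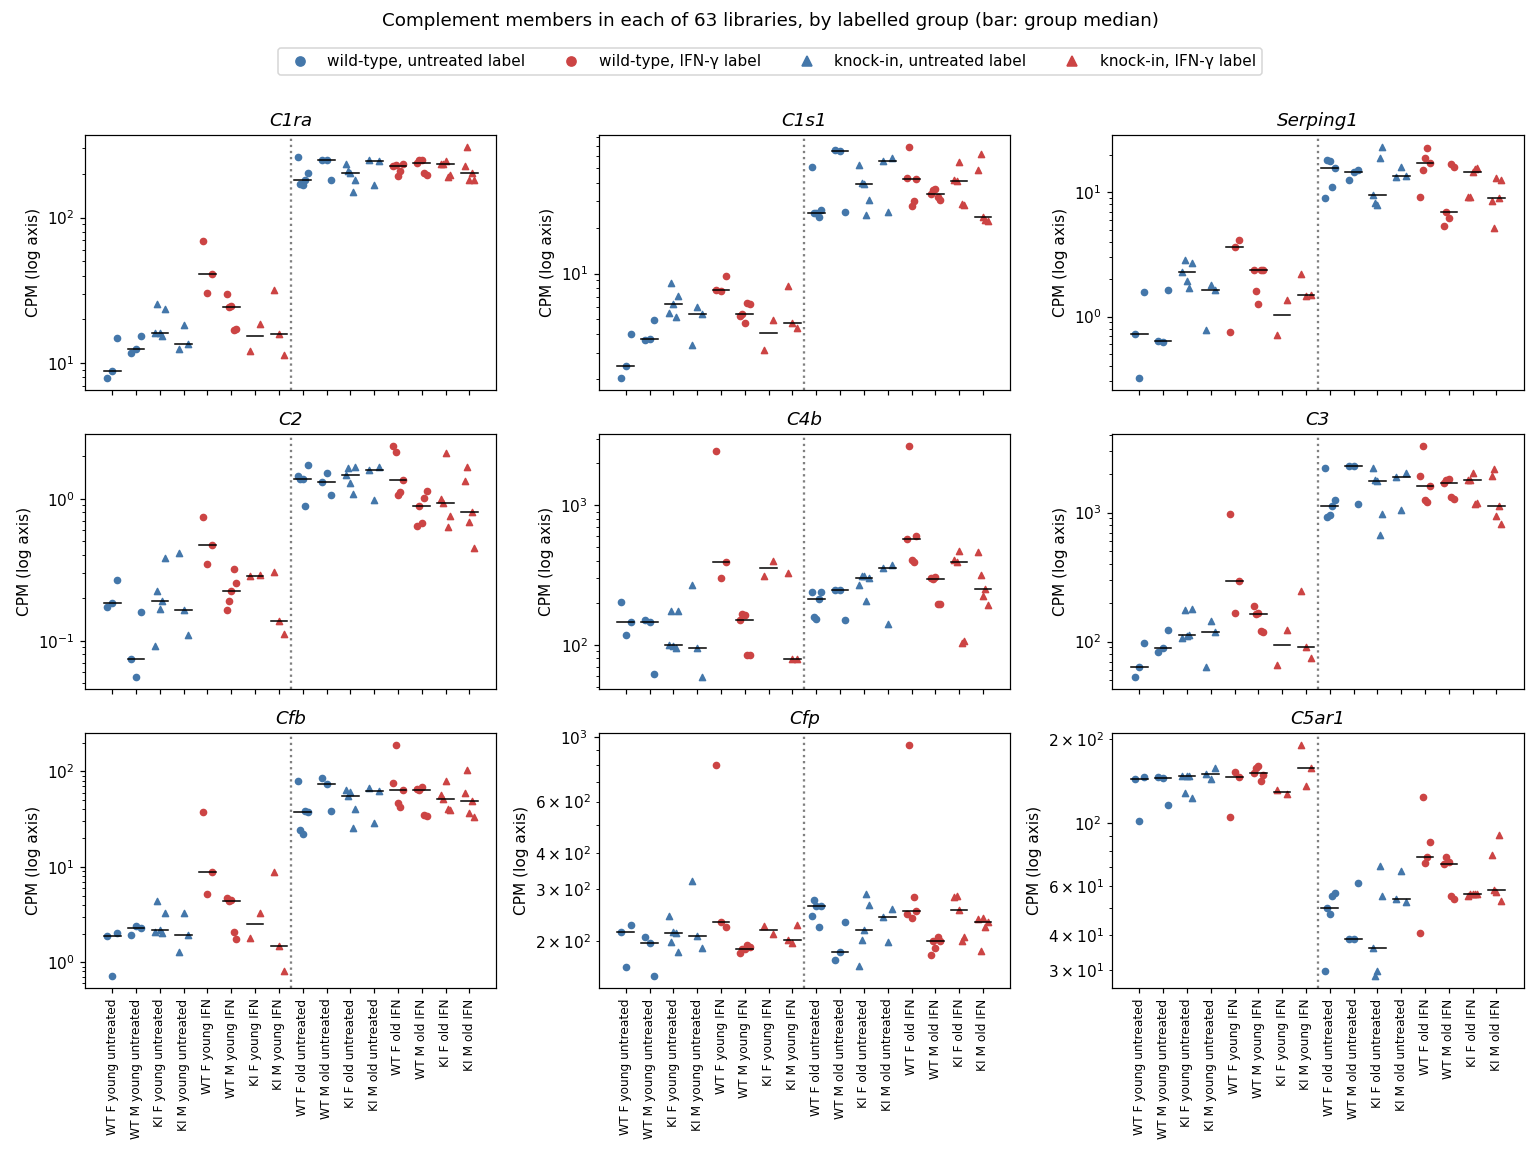
CPM of the 9 members on a log axis (y) in each of the 63 libraries, by labelled group (x); circles are wild-type, triangles knock-in, red the IFN-γ label, blue the untreated label, bars group medians, and the dotted line separates young (left) from old (right). C1ra, C1s1 and Serping1 do not overlap between the age labels, C5ar1 runs the other way, and in C4b and Cfp 1 wild-type IFN-γ female library of each age label stands far above the rest.

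The classical pathway proteases separated the age labels fully. C1ra, which encodes the C1r protease, had a lowest, median and highest level of 151, 209 and 305 CPM in the 36 old libraries and of 7.88, 16.2 and 68.8 CPM in the 27 young ones. Its mean change was 3.55 ± 0.10 (log2 ± SE, adjusted p = 1.1e-34), an 11.7-fold rise. C1s1, which encodes C1s, had 22.3, 34.8 and 68.8 CPM in old and 2.02, 5.20 and 9.62 CPM in young libraries, a change of 2.96 ± 0.13 (adjusted p = 1.8e-26). No old library lay as low as any young one for either gene. Complete separation of this kind, with old higher, was found in 4.79% of tested genes. Mouse C1ra and C1s1 each have a close paralog nearby on chromosome 6, and reads of near-identical stretches could be split between them: C1rb held 11.4 to 18.4% and C1s2 4.96 to 14.3% as many CPM as its partner in the same library. C1rb (3.50 ± 0.10, adjusted p = 1.1e-34) and C1s2 (2.89 ± 0.16, adjusted p = 4.6e-23) changed by nearly the same amount.

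Serping1, the inhibitor of both proteases, also separated fully, with 5.16, 13.4 and 23.3 CPM in old and 0.317, 1.63 and 4.14 CPM in young libraries. The change was 3.11 ± 0.17 (adjusted p = 4.1e-23). Inhibitor and proteases thus rose by similar factors between the labels: 8.61-fold for Serping1, 11.7-fold for C1ra and 7.78-fold for C1s1.

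The substrates of C1s behaved differently from each other. C2 rose by 2.47 ± 0.15 (adjusted p = 1.1e-20), from a median of 0.191 CPM in young to 1.22 CPM in old libraries, with some overlap. C4b, by contrast, changed by only 0.60 ± 0.20 (adjusted p = 0.0071) and its libraries overlapped widely, from 104 to 2666 CPM in old and from 58.6 to 2439 CPM in young. C4b passed in no single stratum, where its changes ran from -0.26 in knock-in IFN-γ females to 1.12 in knock-in untreated females. Its near-identical paralog C4a, which held 4.77 to 8.29% as many CPM as C4b, changed by 0.42 ± 0.19 (adjusted p = 0.047).

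C3, the protein on which all complement pathways converge, had 666, 1651 and 3290 CPM in old and 52.8, 119 and 970 CPM in young libraries, and rose by 3.57 ± 0.18 (adjusted p = 2.8e-24). A single young library, wild-type IFN-γ female 1, reached into the old range; the next highest young value was 296 CPM. Cfb, the protease of the alternative pathway convertase, had the largest change of the 9, 4.11 ± 0.24 (adjusted p = 1.3e-21), or 17.3-fold. It had 22.0, 53.5 and 191 CPM in old and 0.715, 2.16 and 37.9 CPM in young libraries, and the same young library was the exception, above a next value of 8.85 CPM. Cfp, which encodes properdin, moved little, from a median of 207 CPM in young to 236 CPM in old libraries (0.09 ± 0.10, adjusted p = 0.44). Without wild-type IFN-γ females old 2 and young 1, all 9 members passed, Cfp with a change of 0.12 and an adjusted p of 0.030.

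C5ar1 was the only member that fell. It had 102, 146 and 191 CPM in young and 28.6, 55.9 and 124 CPM in old libraries, and fell by 1.31 on the log2 scale (SE 0.08, adjusted p = 7.8e-21). The overlap came from 1 old library, wild-type IFN-γ female 2 with 124 CPM, since the other 35 old libraries lay at 90.9 CPM or lower. In the 8 strata its change ran from -1.66 in knock-in untreated females to -0.75 in wild-type IFN-γ females.

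Because 6 of the members rose together, the promoters on record were searched for binding motifs. RefSeq promoters of build GRCm38.p6, from 250 bases before to 50 bases after the start, were found for 5 of the 9 members, C1ra, C1s1 (2 starts), C3, Cfp and C5ar1. The 250 bases before the start are shown for C1ra and C3, which rose most among these, and for C5ar1, which fell. They are also shown for the second start of C1s1, where an NF-kappaB match lies before the start. Capitals mark matches on either strand to the NF-kappaB motif (GGGA, any 4 bases, CC) or the C/EBP motif TTGCNNAA.
C1ra, chr6:124512371-124512620, plus strand: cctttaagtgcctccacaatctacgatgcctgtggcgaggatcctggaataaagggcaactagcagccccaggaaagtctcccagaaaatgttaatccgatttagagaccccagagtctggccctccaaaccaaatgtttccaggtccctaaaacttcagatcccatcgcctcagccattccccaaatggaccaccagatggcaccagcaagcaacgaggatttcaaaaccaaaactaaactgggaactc
C1s1, chr6:124542322-124542571, minus strand: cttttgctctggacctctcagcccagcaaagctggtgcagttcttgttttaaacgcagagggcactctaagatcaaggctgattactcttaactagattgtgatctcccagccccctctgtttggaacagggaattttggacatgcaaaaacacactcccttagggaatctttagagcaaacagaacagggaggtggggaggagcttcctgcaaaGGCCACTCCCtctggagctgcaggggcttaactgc
C3, chr17:57228137-57228386, minus strand: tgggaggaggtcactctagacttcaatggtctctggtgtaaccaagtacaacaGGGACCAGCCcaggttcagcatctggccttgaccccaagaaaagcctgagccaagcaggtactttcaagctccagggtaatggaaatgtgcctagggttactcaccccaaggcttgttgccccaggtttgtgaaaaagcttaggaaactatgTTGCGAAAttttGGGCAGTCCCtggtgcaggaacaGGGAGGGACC
C5ar1, chr7:16259339-16259588, minus strand: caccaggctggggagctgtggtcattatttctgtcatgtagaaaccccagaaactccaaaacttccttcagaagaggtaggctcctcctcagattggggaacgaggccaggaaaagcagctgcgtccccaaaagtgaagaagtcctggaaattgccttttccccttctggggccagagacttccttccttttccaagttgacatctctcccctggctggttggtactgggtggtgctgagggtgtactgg
In C3 the NF-kappaB motif matched at 3 places and the C/EBP motif at 1, all within the 250 bases shown. The C1s1 match is to NF-kappaB. The other C1s1 start held the same NF-kappaB letters at bases 4 to 13 after it, and a C/EBP match 242 bases upstream. C1ra held none in the stretch shown; in the 50 bases after its start it held 1 match to C/EBP and 1 to the GAS motif TTCNNNGAA, an element known from promoters of IFN-γ-induced genes. No member promoter held the ISRE core (GAAA, any 2 bases, GAAA), a site of interferon regulatory factors, and those of C5ar1 and Cfp held none of the 4 motifs. Over 32851 promoters of 300 bases, 20.7% held the NF-kappaB motif, 10.8% the C/EBP motif, 8.30% the GAS motif and 3.44% the ISRE core. A match describes letters in this window only.

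Between the treatment labels the members differed far less. As the mean of 8 strata, 5 of the 9 were higher with the IFN-γ label and none lower, where 26.0% of all genes passed and 12.0% were higher: C4b (0.89 ± 0.20, adjusted p = 7.1e-04), Cfb (0.72 ± 0.20, adjusted p = 0.0059), C1ra (0.41 ± 0.09, adjusted p = 2.7e-04), C3 (0.41 ± 0.15, adjusted p = 0.033) and C5ar1 (0.25 ± 0.08, adjusted p = 0.017). C1s1, C2, Cfp and Serping1 had changes of 0.13 to 0.20 that did not pass. With near-identical libraries joined, C3 (adjusted p = 0.14) and C5ar1 (adjusted p = 0.11) no longer passed, and without wild-type IFN-γ females old 2 and young 1 C3 did not (0.25, adjusted p = 0.18). The C3 call was also lost on leaving out any of 6 single libraries, 5 of them others.

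**Figure D2:**
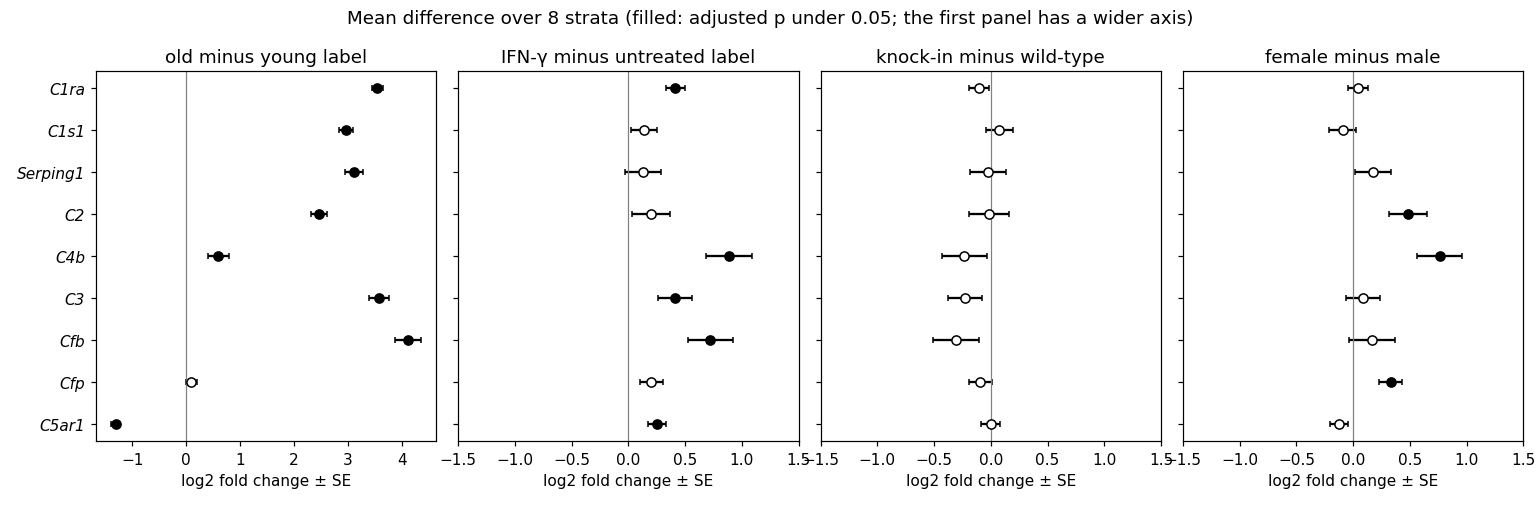
Mean log2 fold change ± SE over 8 strata (x) of each member (y) for the age label, the IFN-γ label, genotype and sex; filled points have an adjusted p under 0.05, and the first panel has a wider axis. The age panel holds changes from -1.31 to 4.11, while those of the other panels stay below 1.

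Within single strata, the calls for the treatment label came from wild-type females alone. Of the 72 stratum tests 9 passed, 7 in wild-type young females and 2 in wild-type old females, against 8.59% of such tests over all genes. In those strata 10.0% (young) and 9.13% (old) of all genes were higher. In wild-type young females C3 had 52.8, 63.9 and 96.6 CPM in the 3 untreated and 970, 168 and 296 CPM in the 3 IFN-γ libraries, a change of 2.75 ± 0.49 (adjusted p = 4.6e-05). Cfb had 1.87, 0.715 and 2.04 CPM against 37.9, 5.18 and 8.85 CPM (3.48 ± 0.68, adjusted p = 1.7e-04). All 3 IFN-γ libraries lay above all 3 untreated ones for both genes, and 1 library lay far above its partners. The share of all genes that separate in this way within a single stratum was not counted, here or below.

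C1ra in the same stratum had 7.88, 8.89 and 15.0 CPM against 68.8, 30.5 and 41.1 CPM (2.14 ± 0.28, adjusted p = 4.1e-07), also without overlap. C1s1 (1.57 ± 0.39, adjusted p = 0.0027) and Serping1 (1.71 ± 0.53, adjusted p = 0.019) rose too, and so did C4b (2.74 ± 0.65, adjusted p = 0.0018) and Cfp (1.05 ± 0.32, adjusted p = 0.016). Serping1 went its own way in the library with the most C3: it had 0.750, 3.61 and 4.14 CPM in the 3 IFN-γ libraries in the order above. Without wild-type IFN-γ females old 2 and young 1, C3 (1.71, adjusted p = 0.010), Cfb (2.19, adjusted p = 0.023), C1ra (1.76, adjusted p = 3.7e-05), C1s1 (1.62, adjusted p = 0.0084) and Serping1 (2.15, adjusted p = 0.0066) still passed. C4b (1.15, adjusted p = 0.23) and Cfp (0.17, adjusted p = 0.66) did not. The Serping1 call was lost without untreated library 1, untreated library 4 or IFN-γ library 5 (adjusted p up to 0.12), the Cfp call also without untreated library 4, and with near-identical libraries joined (adjusted p = 0.074).

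In the stratum with the largest treatment change, C1ra, C1s1 and Serping1 stayed below the old range, while C3 and Cfb in library 1 reached into it. C1ra at 30.5 to 68.8 CPM and Serping1 at 0.750 to 4.14 CPM in the wild-type young IFN-γ females compare with lowest old values of 151 CPM and 5.16 CPM. Gbp2 had 655, 693 and 883 CPM in these libraries and 13.5 to 195 CPM in the untreated ones. In the other 3 young strata no member passed, with changes of C3 of 0.63 in wild-type males, 0.34 in knock-in males and -0.53 in knock-in females.

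In wild-type old females the members called were C4b (2.21 ± 0.49, adjusted p = 0.0011) and C5ar1 (0.74 ± 0.20, adjusted p = 0.0055). C4b had 154 to 240 CPM in the 5 untreated libraries and 572, 2666, 408, 393 and 600 CPM in the 5 IFN-γ ones, with no overlap. Without wild-type IFN-γ females old 2 and young 1 the change was 1.30 (adjusted p = 0.022) for C4b and 0.53 (adjusted p = 0.061) for C5ar1. Leaving out library old 2 alone gave adjusted p-values of 0.060 for C4b and 0.070 for C5ar1, and joining near-identical libraries gave C4b 0.0504.

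**Figure D3:**
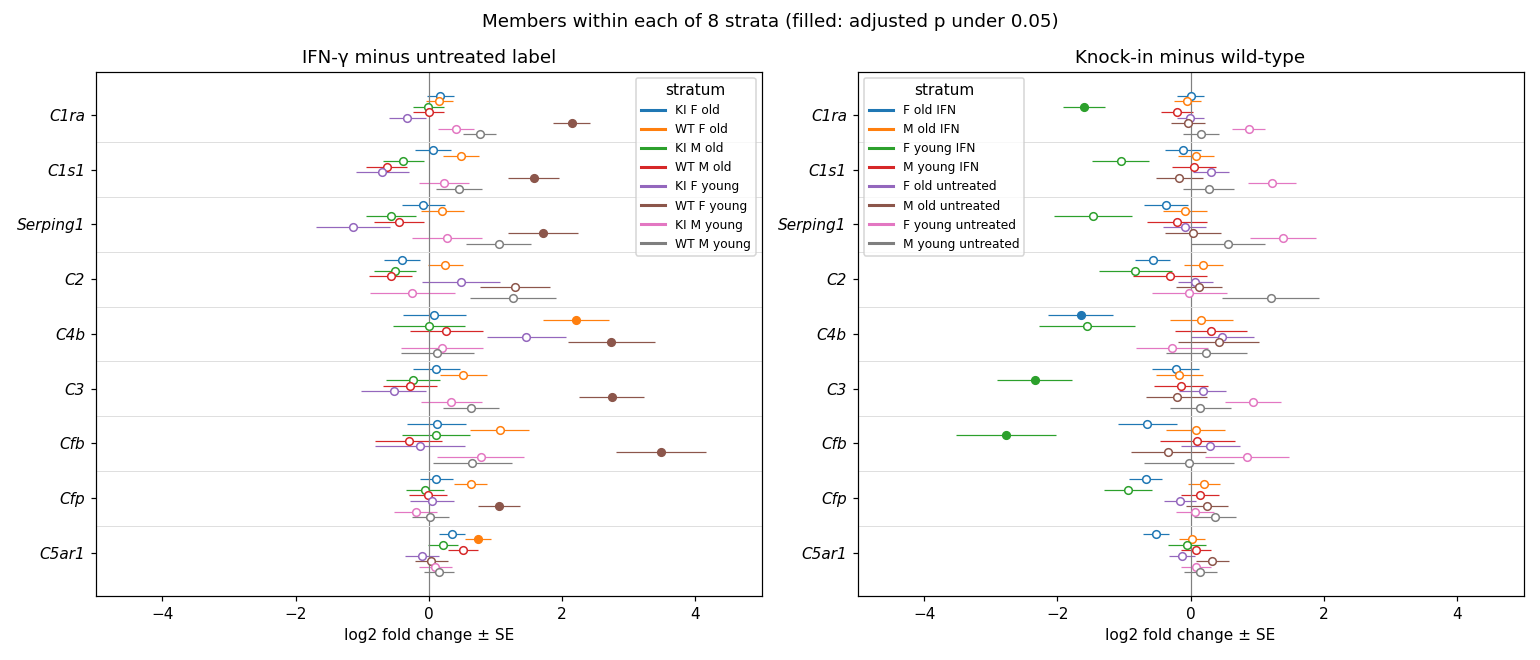
Log2 fold change ± SE (x) of each member (y) within each of 8 strata (colours) for the IFN-γ label (left) and for knock-in against wild-type (right); filled points have an adjusted p under 0.05. On the left the wild-type young females lie to the right of the other strata for C1ra, C3 and Cfb; on the right the young IFN-γ females lie to the left, at -1.60, -2.34 and -2.77.

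The R1441C knock-in was the factor the study was built around, and no member differed by genotype in the mean of 8 strata, where 1.16% of all genes did. The mean changes ran from -0.31 ± 0.20 for Cfb to 0.08 ± 0.12 for C1s1, with no adjusted p below 0.44, and 0 of the 9 had an unadjusted p under 0.05 in edgeR. DESeq2 also called 0 of the 9. Within strata 4 of 72 tests passed, against 2.48% over all genes, all of them in IFN-γ females and all lower in the knock-in. In the young and old IFN-γ females 3.79% and 3.7% of all genes were lower. Lrrk2 itself had lower group means in the knock-in with IFN-γ. They were 109 against 151 CPM in old females, 120 against 169 in old males, 62.3 against 105 in young females and 33.4 against 45.4 in young males. Untreated groups went both ways, such as 154 against 116 CPM in old females and 25.3 against 33.3 CPM in young males. No test of Lrrk2 is given here.

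In young IFN-γ females C1ra had 12.2 and 18.7 CPM in the 2 knock-in libraries against 68.8, 30.5 and 41.1 CPM in the 3 wild-type ones (-1.60 ± 0.31, adjusted p = 0.0014). C3 had 65.9 and 123 CPM against 970, 168 and 296 CPM (-2.34 ± 0.56, adjusted p = 0.0075). Cfb had 1.81 and 3.25 CPM against 37.9, 5.18 and 8.85 CPM (-2.77 ± 0.75, adjusted p = 0.019). The groups did not overlap for these 3 genes, and the share of all genes without overlap between these 2 groups was not counted. Without wild-type library 1, and old 2 with it, C1ra still passed (-1.20, adjusted p = 0.024), and C3 (-1.28, adjusted p = 0.12) and Cfb (-1.46, adjusted p = 0.20) did not. Leaving out knock-in library 1 ended all 3 calls, leaving out knock-in library 2 that of Cfb, and joining near-identical libraries all 3 (adjusted p = 0.10 for C1ra, 0.22 for C3 and 0.27 for Cfb). Gbp2 ran in the same order, at 24.3 and 235 CPM in the knock-in against 655, 693 and 883 CPM in the wild-type libraries, and its part in the difference was not tested. Among untreated young females the values ran the other way without passing: C1ra had 15.4 to 25.5 CPM in 5 knock-in libraries against 7.88 to 15.0 CPM in 3 wild-type ones (0.87 ± 0.25, adjusted p = 0.077). In old IFN-γ females C4b was lower in the knock-in (-1.65 ± 0.49, adjusted p = 0.034), with 104 to 473 CPM in 5 libraries against 393 to 2666 CPM, and it no longer passed without wild-type library 2 without either of knock-in libraries 4 and 5, or with near-identical libraries joined (adjusted p = 0.31).

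The difference of the treatment change between genotypes was tested directly. Of 54 tests of pairwise interactions over the 9 members 4 passed, against 2.79% over all genes. For genotype by treatment label, where 5.58% of all genes passed below 0, the knock-in change minus the wild-type change was -0.71 ± 0.17 for C1ra (adjusted p = 0.0067), -0.98 ± 0.30 for C3 (adjusted p = 0.025) and -1.01 ± 0.32 for Serping1 (adjusted p = 0.031). The values of the other 6 members were below 0 as well, from -1.01 for Cfb to -0.22 for C5ar1, and did not pass. The median was -0.72 over the 9 members and -0.014 over all genes. Several members varied together between libraries, so their shared sign is not independent. Without wild-type IFN-γ females old 2 and young 1, C1ra (-0.60, adjusted p = 0.016) and Serping1 (-1.12, adjusted p = 0.012) passed and C3 did not (-0.64, adjusted p = 0.097). With near-identical libraries joined none of the 3 passed (adjusted p = 0.16 for C1ra, 0.27 for C3 and 0.16 for Serping1). On leaving out single libraries, C3 was lost without wild-type IFN-γ young female 1 or knock-in IFN-γ young female 1, and Serping1 without any of 4 libraries of young mice. No member passed for genotype by age label, genotype by sex, age label by sex or age label by treatment label; of these, C1ra came nearest in the last (-0.67 ± 0.17, adjusted p = 0.053).

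By sex, 3 of the 9 members were higher in females in the mean of 8 strata, where 13.6% of all genes differed and 7.13% were higher: C4b (0.76 ± 0.20, adjusted p = 0.0075), C2 (0.48 ± 0.17, adjusted p = 0.046) and Cfp (0.33 ± 0.10, adjusted p = 0.025). Within strata 8 of 72 tests passed, against 3.41% over all genes, and all 8 lay in wild-type IFN-γ libraries, 5 in the young and 3 in the old, where 7.63% and 4.84% of all genes were higher in females. Among the wild-type young these were C4b (3.00 ± 0.55), Cfb (2.31 ± 0.53), C3 (1.66 ± 0.40), Cfp (1.15 ± 0.28) and C1ra (1.05 ± 0.23), with adjusted p-values from 1.4e-04 for C4b to 0.0037 for C3 and Cfp. The fourth interaction that passed was treatment label by sex for C4b, 1.48 ± 0.39 (adjusted p = 0.026). Without wild-type IFN-γ females old 2 and young 1, 0 of 9 members passed in the mean (C4b 0.45, adjusted p = 0.054), 0 of 72 in the strata, and the C4b interaction fell to 0.85 (adjusted p = 0.13). For C2 and C4b other single libraries ended calls as well. C2 lost its call in the mean without any 1 of 34 of the 63 libraries (adjusted p up to 0.084) and in the wild-type old without any of 6, 4 of them male. C4b lost its call in the wild-type old also without male 4, and its interaction without any of 4 libraries. With near-identical libraries joined, none of the 3 passed in the mean (adjusted p = 0.11 for C4b, 0.21 for C2 and 0.24 for Cfp), nor any of the 8 in strata (0.058 to 0.43) or the interaction (0.37).

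In those libraries C4b and Cfp stood far above every other. C4b had 2666 CPM in old 2 and 2439 CPM in young 1, against 600 CPM or less in the other 61 libraries, and Cfp had 939 and 799 CPM against 321 CPM or less. C3, at 3290 CPM, and Cfb, at 191 CPM, were the highest of all libraries in old 2. Cd79a, the signalling chain of the B cell antigen receptor, had 197 and 311 CPM there and at most 62.8 CPM elsewhere, and the summed 10 markers of mesothelial cells and fibroblasts were the lowest of all libraries, 16.4 and 41.3 CPM. Over all libraries the B cell markers moved with the treatment label, with 67.7 to 2738 CPM in the IFN-γ and 21.0 to 96.8 CPM in the untreated libraries, and all 8 of 8 markers were detected. Their part in the differences of C4b and Cfp was not tested, and in bulk RNA more cells of a type and more RNA per cell cannot be told apart. Markers of T and NK cells (at most 7.88 CPM over 6 genes) and dendritic cells (at most 8.89 CPM over 4 genes) were near 0 in comparison. Neutrophil markers summed to 22.8 to 115 CPM over 5 genes, without Ly6g, which was too low to be tested. Their highest group means were 88.7 CPM for Mmp8 and 61.8 CPM for S100a8. Those of Retnlg, Cxcr2 and S100a9 were only 2.82, 1.73 and 0.114 CPM. Mast cell markers summed to 1.01 to 111 CPM over 5 genes, with young 1 the highest.

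**Figure D4:**
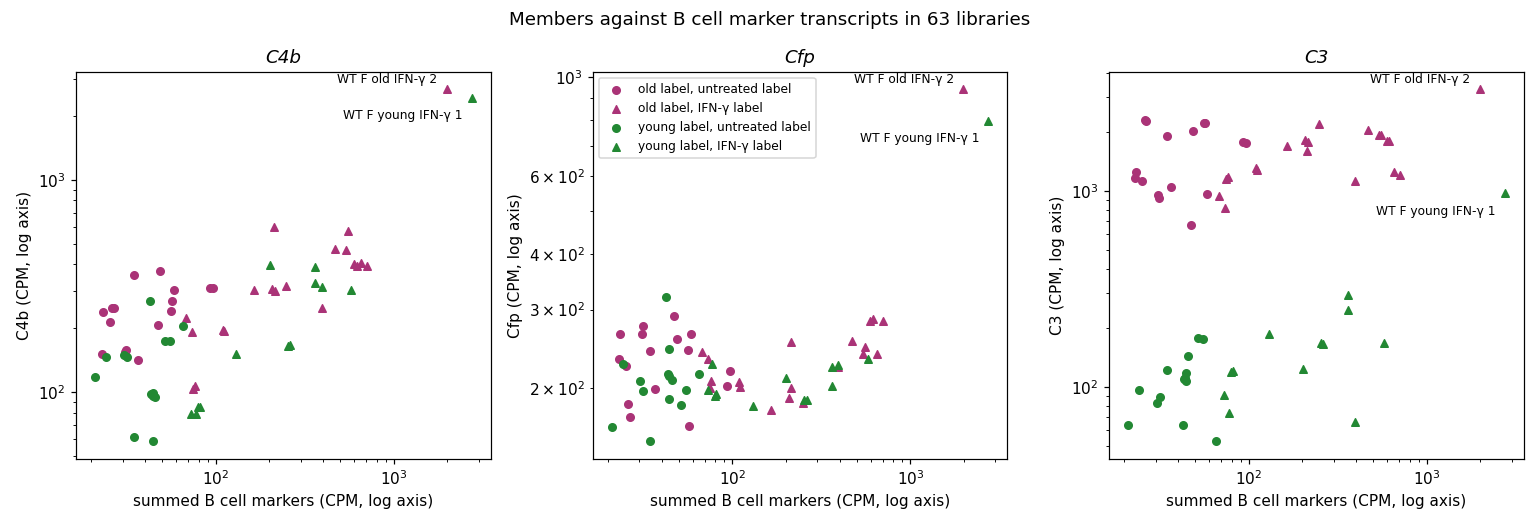
C4b, Cfp and C3 (y, CPM, log axis) against the summed CPM of 8 B cell markers (x, log axis) in the 63 libraries; colour gives the age label and shape the treatment label. The 2 named libraries lie at 1981 and 2738 CPM of B cell markers and are the highest for C4b and Cfp, while C3 splits by the age label.

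Within the old groups, the members did not move as one. After each group mean was subtracted from log2 CPM, C1ra, C1s1, C3 and Cfb deviated together over the 36 old libraries (Pearson r from 0.88 to 0.94 for the 6 pairs), and Serping1 deviated the other way (r from -0.70 to -0.53). For C3 and Serping1 r was -0.70 and Spearman's rho was -0.71, and without the 2 libraries farthest in C3 r was -0.72 over 34 libraries. In wild-type untreated old females, C3 had 2224, 924, 953, 1124 and 1250 CPM in libraries 1 to 5, and Serping1 had 9.03, 18.2, 17.9, 11.1 and 15.9 CPM. In wild-type IFN-γ old males, C3 had 1696, 1778, 1819, 1313 and 1276 CPM and Serping1 5.38, 6.98, 6.22, 16.8 and 16.1 CPM. Both groups are examples. In the first, library 1 was highest in C3 and lowest in Serping1, while libraries 4 and 5 broke this order. In the second, the near-identical libraries 1 to 3 were high in C3 and low in Serping1. The order did not hold throughout other groups. In knock-in IFN-γ old females library 3 had the most C3, 2041 CPM, with 14.5 CPM of Serping1 against 9.15 CPM in libraries 1 and 2. Both genes nevertheless rose between the age labels. The summed mesothelial and fibroblast markers went with Serping1 (r = 0.66) and against C3 (r = -0.85) and Cfb (r = -0.85) in the same libraries. That sum is mostly collagen transcripts, with highest group means of 222 CPM for Col1a2, 189 CPM for Col1a1 and 70.3 CPM for Col3a1. Msln, Krt19, Upk3b and Lrrn4 reached at most 1.74 CPM. In the order Serping1, C3 and Cfb, r was 0.56, -0.77 and -0.66 for neutrophil markers, a sum mostly of Mmp8 and S100a8. It was 0.51, -0.51 and -0.29 for macrophage markers, a sum mostly of Lyz2. Other lists ran the opposite way: -0.38, 0.67 and 0.66 for 12 genes of the IFN-γ response, and -0.47, 0.60 and 0.55 for B cell markers. The part of these markers was not tested. Near-identical libraries are among the points, which are therefore fewer in effect than 36. Among the 27 young libraries r with Serping1 was -0.02 for C3, 0.0058 for Cfb, 0.15 for C1ra and 0.66 for C1s1, so Serping1 did not run against these 4 genes there. Wild-type IFN-γ female 1 was high in C3 and low in Serping1.

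**Figure D5:**
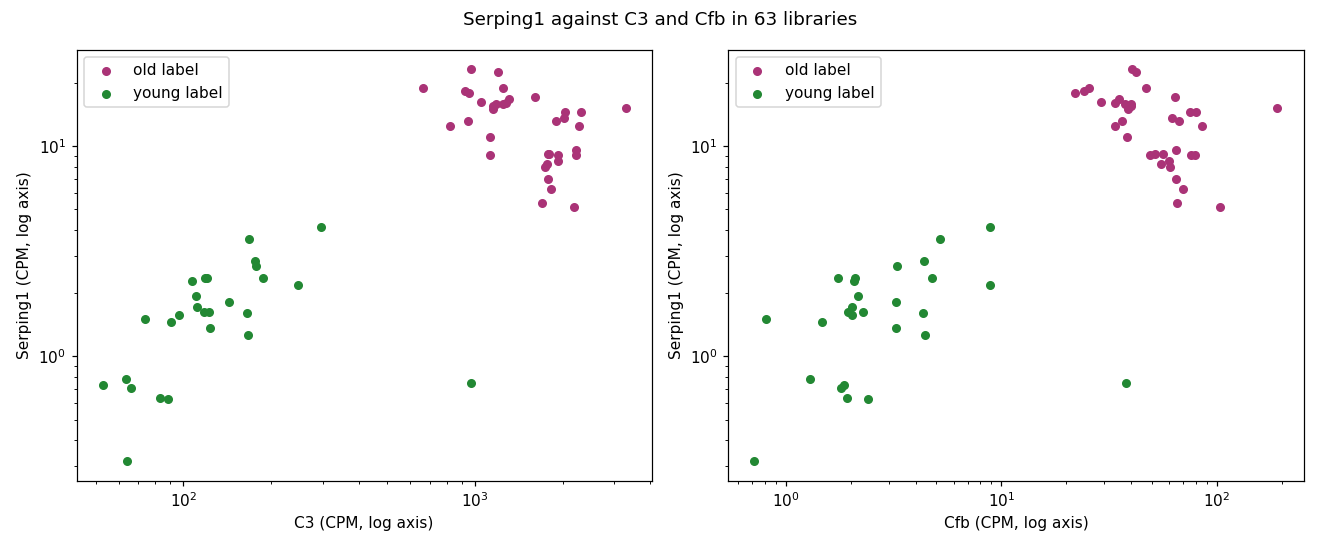
Serping1 (y) against C3 (left) and Cfb (right), in CPM on log axes, in the 63 libraries, coloured by age label. Old libraries lie above and to the right of the young ones, yet among them Serping1 tends to be lower where C3 is higher, with exceptions. The young point far to the right is wild-type IFN-γ female 1, with 970 CPM of C3 and 0.750 CPM of Serping1.

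The genes most like each member over the 63 libraries were picked by Pearson's r of log2 CPM among 10993 genes, as a description in which libraries share the split by age label. C1ra was nearest to its paralog C1rb (r = 0.998), then Pla2g16 (0.996) and Hrh2 (0.995), and C1s1 to C1s2, Plpp1 and AA467197 (0.979 to 0.984). C3 was nearest to Ass1 (0.991), which encodes argininosuccinate synthase, Sod2 (0.990), the mitochondrial superoxide dismutase, and C1rb (0.986), and Cfb to Smpdl3b, Ass1 and Ifi206 (0.987 to 0.988). Genes near C2 were Asb11 (0.933) and Apobec3 (0.926), and Serping1 was nearest to Slco3a1, Ctsc and Apol6 (all 0.941). C4b was nearest to C4a (0.984), Selp (0.916) and Cdc42bpg (0.910). C5ar1, with r between 0.944 and 0.946, went with Sfxn3, Susd3 and Ms4a4a. Cfp had no close match: its nearest genes Ecm1, Grk6 and Siglece reached 0.812 to 0.816.

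Of a wider list of 52 complement genes, 36 could be tested, and between the age labels 13 were higher and 15 lower, with a median change of -0.13. As shares of those tested these lie close to the 31.9% and 38.9% of all genes. The proteases and convertase parts were higher in 5 of 6 and lower in none, but 3 of the 5 are C1rb, C1s2 and C4a, the paralogs given above, which may share reads with members. The other 2 were Masp1, a protease of the lectin pathway, chosen after its values were seen (0.93 ± 0.12, adjusted p = 7.5e-10), and C1rl, a C1r-like protease (2.74 ± 0.08, adjusted p = 2.3e-35). Masp1 lay near the floor, with a highest group mean of 0.551 CPM. Of 8 recognition molecules 4 were higher, including the C1q chains C1qb (1.09 ± 0.06) and C1qc (1.11 ± 0.06), and 1 was lower, the scavenger collectin Colec12 (-1.63 ± 0.11). The membrane regulators ran the other way, with 6 of 7 lower and 1 higher; Thbd, thrombomodulin, fell by 1.79 on the log2 scale (SE 0.09, adjusted p = 6.9e-24). Of 8 receptors 6 were lower and 2 higher. C5ar2, the second C5a receptor, fell by 2.72 on the log2 scale (SE 0.10, adjusted p = 1.4e-29), and C3ar1, the C3a receptor, chosen after its values were seen, by 1.40 (SE 0.14, adjusted p = 2.1e-13). Receptors for both anaphylatoxins were thus lower in the same libraries in which C3 was higher. The exceptions were Itgb2, the beta chain of the complement receptor integrins (0.69 ± 0.03, adjusted p = 2.2e-25), and Itgax, chosen after its values were seen (0.58 ± 0.09, adjusted p = 1.8e-07). Of 4 tested genes listed as soluble regulators 1 was higher, C1qbp (0.53 ± 0.03, adjusted p = 4.7e-23), and 1 lower. The listing is by choice and does not show that C1qbp acts as one here.

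For the treatment label, 13 of the 36 were higher and 5 lower, where 12.0% of all genes were higher and 26.0% passed in either direction. Among them were the membrane regulator Cd55 (1.95 ± 0.18, adjusted p = 2.9e-12), Cr2, the complement receptor that marks B cells (2.65 ± 0.32, adjusted p = 8.3e-09), and C6 (1.39 ± 0.23, adjusted p = 7.0e-06). With near-identical libraries joined 10 of 37 were higher and 0 lower, and the 3 named genes passed. By sex 9 were higher in females and 1 lower, where 7.13% of all genes were higher and 13.6% passed, among them Colec12 (0.81 ± 0.11, adjusted p = 1.6e-06), Cd55 (1.21 ± 0.18, adjusted p = 4.5e-06) and Cd59a (0.61 ± 0.10, adjusted p = 2.6e-05). Without the 2 libraries richest in B cell transcripts 8 of 34 were higher and 1 lower, and with near-identical libraries joined 4 of 37 and 0; Colec12, Cd55 and Cd59a passed in both. None of the 36 differed by genotype in the mean of 8 strata, although 1 was called without those 2 and knock-in IFN-γ old females 4 and 5, and 1 without the knock-in old males titled untreated.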

How the data were processed

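Polyadenylated RNA of peritoneal macrophages was sequenced in 63 libraries. Counts are whole-number read counts per gene as deposited by the authors, and FPKM values are those deposited by the authors beside them. Alignment with STAR 2.7.9a and use of DESeq2 1.40.2 are given per the submitters' processing notes; for the counter, its strand setting and the assignment of paralog reads, nothing was given in the sources used here. FPKM was used only to compare levels between genes.

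Symbols came from a GRCm38 annotation, which matched 52073 of 56748 identifiers. The 9 members, the wider complement list and the marker lists were chosen with earlier results of these data known, and the mark of 2 on the log2 scale after values were seen. Genes were kept by filterByExpr of edgeR, which left 22147, and libraries, with totals of 73.6 to 106.6 M, were scaled by TMM (factors 0.886 to 1.233). All 63 libraries entered 1 model with a coefficient for each group, tested by quasi-likelihood in edgeR 4.0.16 (R 4.3.3). Benjamini-Hochberg adjustment ran over all tested genes within each contrast, with calls at 0.05. Contrasts were the 8 strata of each factor, their mean with equal weights, and 6 pairwise interactions. The fit was tested on simulated data.

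All 9 members are named, and of the wider list up to 10 with the smallest p for the age label and up to 4 for each other factor, if called and at a group mean of 1 CPM or more. Similar genes are the 3 highest in Pearson's r of log2 CPM (prior count 2). A few genes these rules pick are not reported here. Alternatives were DESeq2 and its size factors, no filter, replicate numbers as a block, each library left out, the libraries with conflicting labels or standing apart left out, the 2 groups of a stratum fitted alone, and, added after the data were seen, near-identical libraries joined and the 2 libraries richest in B cell transcripts left out. Libraries were counted as near-identical when the variance of their count differences over sampling noise was below that of every pair from different groups (7.54); the lowest ratio was 3.46, so none were joined for the main result. The count and intervals cover counting error and the spread between libraries only.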

Additional observations from a re-analysis of the deposited data

Results flagged for a closer look

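For 5 of 72 combinations of a member and a group of 5 libraries, 1 library lay farther from the others than Dixon's 95% limit; chance gives about 1 in 20. In wild-type IFN-γ old females, library 2 had 2666 CPM of C4b against 393 to 600 CPM in the others, and 939 CPM of Cfp against 239 to 283 CPM. In wild-type untreated old females, library 1 had 50.4 CPM of C1s1 against 23.7 to 26.2 CPM, and 29.9 CPM of C5ar1 against 47.5 to 56.7 CPM. In knock-in IFN-γ old females, library 1 had 55.0 CPM of C5ar1 against 55.9 to 56.2 CPM, a narrow group in which the gap is small in size.

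Differences between groups in the size of a change, tested as interactions with edgeR, passed for 4 members. The knock-in change with the IFN-γ label minus the wild-type change was -0.71 for C1ra (adjusted p = 0.0067), -0.98 for C3 (adjusted p = 0.025) and -1.01 for Serping1 (adjusted p = 0.031). The female change with that label minus the male change was 1.48 for C4b (adjusted p = 0.026).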

How the results depend on the processing

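The counts for the age label held in every alternative run: 8 or 9 of 9 members in the mean of strata, and 56 to 61 of 72 in single strata, or 49 of the 63 that remain without the knock-in old males titled untreated. No member passed for genotype in the mean in any alternative. For the IFN-γ label the 5 members called became 3 with near-identical libraries joined, and the 9 stratum calls became 4 with the 2 groups of a stratum fitted alone. The 4 genotype calls in strata became 8 with DESeq2, 2 without the 2 libraries richest in B cell transcripts, 0 with near-identical libraries joined and 1 with the 2 groups alone, and 1 without knock-in IFN-γ young female 1 (1 to 6 when each library was left out). The 3 members called for sex became 0 without the 2 libraries richest in B cell transcripts and 0 with near-identical libraries joined (1 to 3 when each library was left out, the lowest without wild-type IFN-γ young female 1). The 8 stratum calls for sex became 0 without 4 libraries that stand apart (knock-in IFN-γ old females 4 and 5 and the 2 named), without those 2, with libraries joined, and with the 2 groups alone (3 to 9 when each library was left out, with the same lowest library). The 4 interactions became 8 with DESeq2, 2 without those 2 libraries and 0 with libraries joined (2 to 8 when each was left out, lowest without wild-type IFN-γ young female 1 and highest without knock-in IFN-γ young male 2). Fitting 2 groups alone and joining libraries leave fewer samples; the cause of the other shifts was not tested. Same-numbered libraries correlated above 0.1 in their deviations from group means in 17 of 26 pairs across the age label (median r 0.16, against -0.05 for different numbers), 13 of 25 across sex (0.12 against -0.03), 11 of 26 across the IFN-γ label (0.07 against -0.02) and 7 of 26 across genotype (0.04 against -0.01). Since not every pair did, the numbers were not taken to pair the libraries, although the age and sex values lean towards it. With the number as a replicate block, the genotype stratum calls became 7.

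Mean changes that turned in sign were all small and not called. For Serping1 with the IFN-γ label the value was -0.028 with the replicate block. By genotype C2 was 0.015 with the block, 0.081 without the 4 libraries, 0.040 without the 2 and 0.017 with libraries joined; C4b was 0.15 without the 4 and 0.078 without the 2; Cfp was 0.12 and 0.096; C5ar1 was 0.012, 0.0077 and, with libraries joined, 0.028. By sex C1ra was -0.0082 without the 2, C3 was -0.057 without the 4 and -0.083 without the 2, and Cfb was -0.040 and -0.065. When each library was left out, the genotype change ran from -0.10 to 0.055 for C2, -0.13 to 0.015 for Cfp, -0.096 to 0.063 for Serping1 and -0.031 to 0.030 for C5ar1, and the sex change from -0.013 to 0.11 for C1ra, -0.051 to 0.18 for C3 and -0.0020 to 0.38 for Cfb. The sign turned without any 1 of 32 libraries for C5ar1, 14 for C2 and 7 for Serping1 by genotype and 3 for C1ra by sex, and without wild-type IFN-γ young female 1 alone for Cfp by genotype and C3 and Cfb by sex. Over 117 member changes, DESeq2 size factors kept direction and side of the threshold in 117, DESeq2 in 116, no filter in 115 and the block in 112, against 93 without the 4 libraries, 92 with libraries joined and 89 without the 2. In the 250 bases before the start alone, 7.02% of promoters held the GAS motif, 2.98% the ISRE core, 17.6% the NF-kappaB motif and 9.56% the C/EBP motif.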
